A study of Homo sapiens with 6 samples.

Results

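MicroRNA host genes are genes whose transcript carries the hairpin of 1 or more microRNAs (miRNAs). The genes described here were the rows of the deposited gene table with the biotype lncRNA and a symbol that begins with MIR and ends with HG, which gave 65 of 46427 genes and 65 of 14763 lncRNA genes. RNA-seq of total RNA had been performed on 6 libraries from 3 established non-small cell lung cancer (NSCLC) cell lines, H460, H1299, and A549, with 1 control and 1 si-MALAT1 library per line. In the si-MALAT1 libraries, small interfering RNA had been transiently transfected against MALAT1, an abundant nuclear lncRNA. The labels give the controls as untreated, whereas the methods describe both untreated and si-Control cells, and which of these was sequenced is not given in the sources used here. All libraries carry the genotype label tumor, and with 1 library per line and condition, treatment and culture cannot be told apart within a line.

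A miRNA host transcript is made as a long primary RNA. DROSHA with DGCR8 cuts the hairpin out in the nucleus, exportin carries it to the cytoplasm, DICER1 trims it, and an Argonaute protein holds the mature strand, which pairs with target mRNAs through its seed, bases 2 to 8. The libraries were made from fragmented total RNA and not from small RNA, so the values below are levels of the host RNA and not of the mature miRNA. Lung tumour cells are known for host genes of both kinds, such as MIR17HG, which carries a cluster that promotes growth, and MIR34AHG, whose miRNA restrains it.

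The miRNAs are shown first because the seeds decide which host genes belong together. Of the 65 host genes, 60 held at least 1 miRNA gene on their own strand in the deposited annotation, 94 miRNA genes in all, of which 64 lay in introns and 30 in or at the edge of an exon. A mature sequence was found in RefSeq (GRCh38.p14) for 89 of the 94. Those on chromosomes 8 and 18 were left out, and the 139 mature sequences used here had 120 different seeds. Capitals mark the seed. The let-7 seed is GAGGUAG, and it is shared by 4 miRNAs carried by MIR100HG, MIRLET7BHG, MIR99AHG, and MIR4458HG, and by miR-4500 of MIR4500HG:
let-7a-5p (MIR100HG and MIRLET7BHG): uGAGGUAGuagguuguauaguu
let-7b-5p (MIRLET7BHG): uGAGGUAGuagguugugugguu
let-7c-5p (MIR99AHG): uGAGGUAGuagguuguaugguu
miR-4458 (MIR4458HG): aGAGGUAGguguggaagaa
MIR100HG and MIR99AHG are also alike in their other miRNAs, since they carry the same mature miR-125b-5p and 2 miRNAs with the seed ACCCGUA:
miR-100-5p (MIR100HG): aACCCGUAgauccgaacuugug
miR-99a-5p (MIR99AHG): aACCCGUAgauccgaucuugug
miR-125b-5p (both): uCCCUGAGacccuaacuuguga

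The next sequences belong to further host genes whose values are described at length below. MIR17HG carries 6 miRNAs, in which the seeds AAAGUGC and GUGCAAA each occur in a pair, and MIR29B2CHG carries a pair with the seed AGCACCA:
miR-17-5p (MIR17HG): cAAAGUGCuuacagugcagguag
miR-20a-5p (MIR17HG): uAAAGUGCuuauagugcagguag
miR-19a-3p (MIR17HG): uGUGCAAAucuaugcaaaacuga
miR-19b-3p (MIR17HG): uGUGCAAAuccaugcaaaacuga
miR-29b-3p (MIR29B2CHG): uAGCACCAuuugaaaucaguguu
miR-29c-3p (MIR29B2CHG): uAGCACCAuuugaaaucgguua
miR-22-3p (MIR22HG): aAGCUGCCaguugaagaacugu
miR-34a-5p (MIR34AHG): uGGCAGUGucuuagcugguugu
miR-4435 (MIR4435-2HG): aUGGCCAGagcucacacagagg
miR-181a-5p (MIR181A1HG and MIR181A2HG): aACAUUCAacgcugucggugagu
miR-193b-3p (MIR193BHG): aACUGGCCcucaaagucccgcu
miR-600 (MIR600HG): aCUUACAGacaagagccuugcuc
These miRNAs fall into 2 kinds by place. miR-17, miR-20a, miR-19a, miR-19b, miR-29b, miR-29c, miR-22, miR-34a, miR-600, miR-4458, let-7b, and the let-7a copy of MIRLET7BHG lie in exons, while the hairpins in MIR100HG, MIR99AHG, MIR4435-2HG, MIR193BHG, MIR181A1HG, and MIR181A2HG lie in introns.

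Only part of the host genes were read, as was the case for all genes. At least 1 read was listed for 47 of the 65, beside 31353 of all 46427 genes, and 18 had no read in any library. A read in all 6 libraries was found for 23 of the 65, beside 17834 of all 46427 genes. A mean of at least 50 reads was found for 24. The libraries held 42506818 to 68515992 counted reads, and the host genes took between 168.4 and 244.7 CPM, that is, reads scaled to the library total. A count of 0 allows up to 3 reads, which is a counting limit only. The epithelial markers KRT8 and KRT18 had at least 11408 reads in each library and EPCAM 23 to 485, whereas the leukocyte marker PTPRC and the alveolar marker SFTPA1 had 0, the endothelial marker PECAM1 at most 8, and the alveolar marker SFTPC at most 11. MALAT1 was lower after si-MALAT1 in each line, with log2 fold changes of −2.96 (H1299), −2.84 (A549), and −2.32 (H460).

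Per length, 2 host genes stood above the rest. MIR4435-2HG, a widely expressed cytoplasmic lncRNA (chr2:111195866-111495161, minus strand, GRCh38), had 46.4 and 39.1 TPM in the control and si-MALAT1 libraries of H460, 26.7 and 21.8 TPM in A549, and 34.0 and 31.9 TPM in H1299. MIR100HG (chr11:122028329-122422871, minus strand) had 41.0 and 49.2 TPM in H1299, 2.49 and 2.74 TPM in A549, and 0.672 and 0.613 TPM in H460. MIR4435-2HG was thus first among the host genes in all H460 and A549 libraries and MIR100HG in both H1299 libraries. In H460 the next was MIR29B2CHG at 7.52 and 5.89 TPM, in the H1299 libraries MIR22HG at 5.92 and 12.7 TPM was the third, and in A549 MIR1915HG at 7.66 TPM followed in the control and MIR22HG at 15.1 TPM after si-MALAT1. MIR100HG alone took 47.1% (exact 95% interval 46.3 to 47.9%) of the host gene reads in the H1299 control, and MIR4435-2HG 30.2% (29.4 to 31.0%) in the H460 control. These intervals and those below are exact Clopper-Pearson intervals and cover counting error only.

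**Figure D1:**
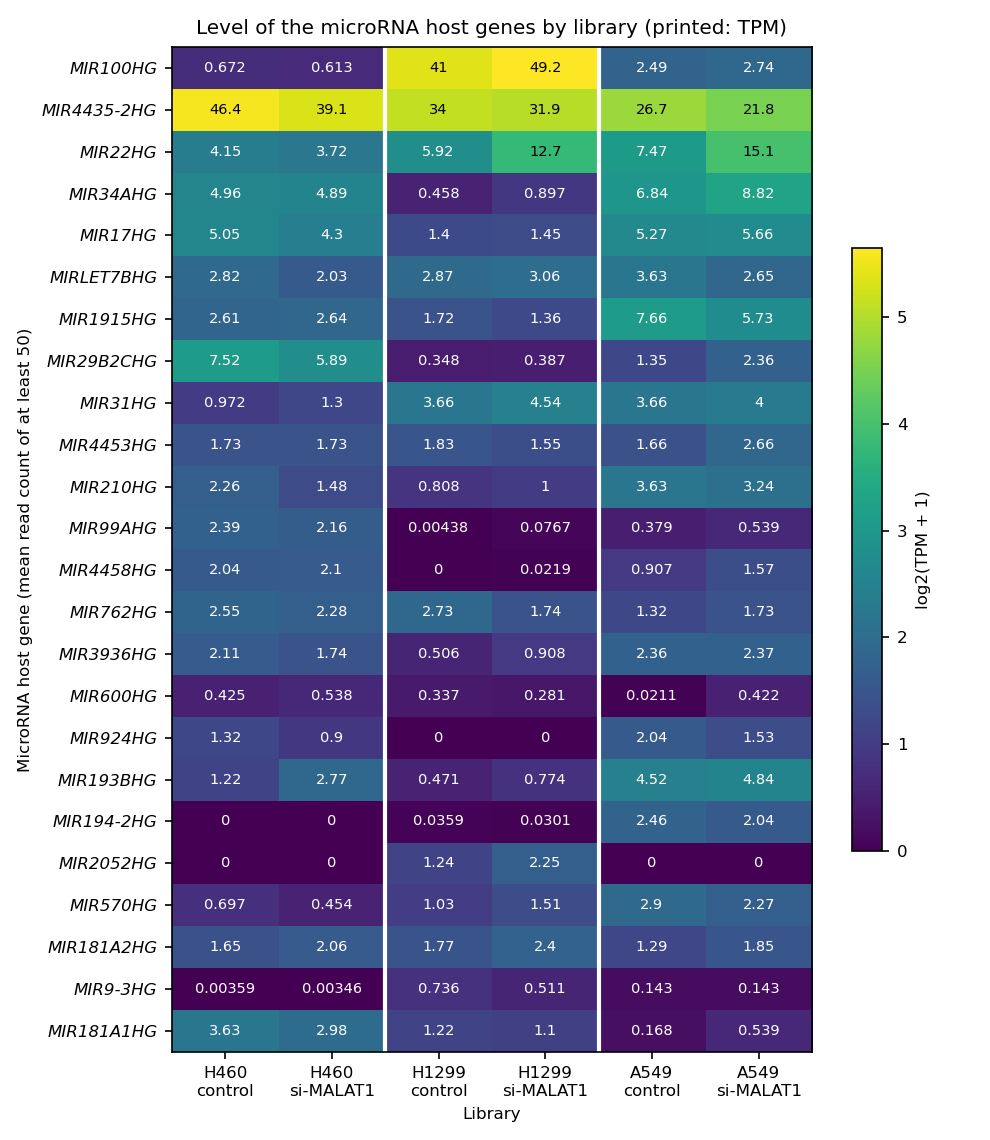
Level of the 24 microRNA host genes with at least 50 reads on average (rows) in the 6 libraries (columns), coloured by log2(TPM + 1) with the TPM printed in each cell. MIR4435-2HG was high in all 6 libraries, at 21.8 to 46.4 TPM, while MIR100HG reached 41.0 and 49.2 TPM in H1299 and 0.613 and 0.672 TPM in H460.

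The first comparison was between cell lines. Host genes differed more between lines than between si-MALAT1 and control: over the 23 host genes with a read in every library, the median absolute log2 difference between 2 lines lay between 0.78 and 1.88, and that between si-MALAT1 and control was 0.16 in H460, 0.41 in A549, and 0.40 in H1299. Over all 17834 genes with a read in every library, the same medians lay between 0.53 and 0.76 for lines and between 0.25 and 0.30 for si-MALAT1. In edgeR's quasi-likelihood F test of the cell line, with an adjusted p under 0.05, 24 of 33 tested host genes (72.7%) were called, beside 62.9% of all genes tested. That filter admits genes read in a single line, so the count is a description. Among the 23 host genes with a read in every library, 16 were called, beside 61.9% of such genes. The contrasts called 20 host genes between H1299 and H460 (8 higher and 12 lower in H1299, beside 50.7% of all genes), 14 between A549 and H460 (9 higher and 5 lower in A549, beside 35.3%), and 18 between A549 and H1299 (12 higher and 6 lower in A549, beside 47.2%). Each line had 2 libraries, 1 control and 1 si-MALAT1, and the fit left 2 residual degrees of freedom. The spread behind these p-values is what the line and condition terms leave, that is, how unlike the lines changed after si-MALAT1. No line had a replicate of the same condition, so the spread between cultures of a line was not measured. In such bulk samples, fewer cells with an RNA and less RNA per cell cannot be told apart.

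**Figure D2:**
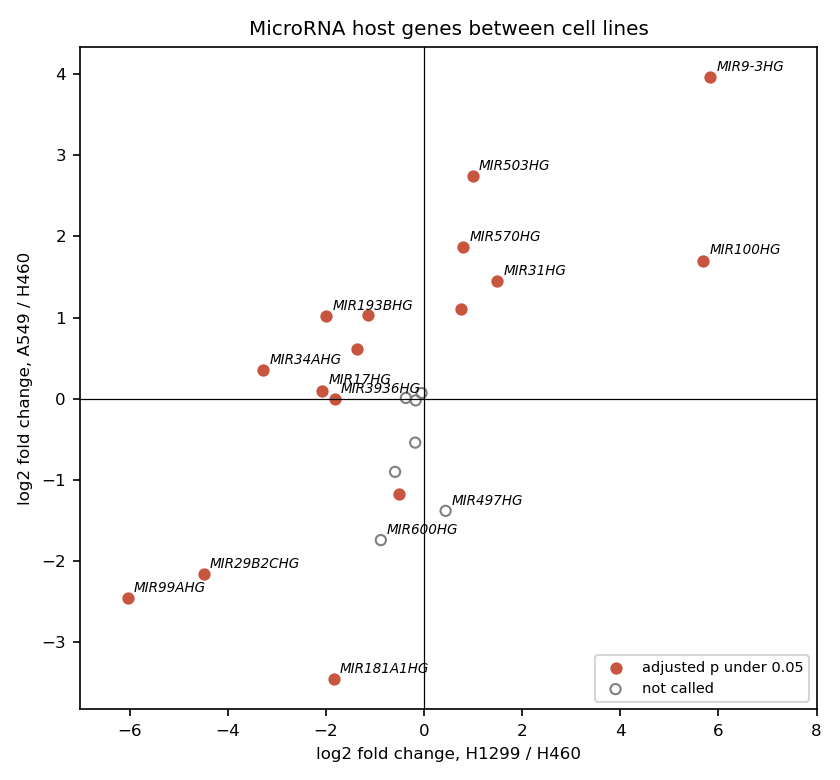
Fitted log2 fold change of the 23 microRNA host genes with a read in every library, H1299 against H460 (horizontal axis) and A549 against H460 (vertical axis), with filled points for the 16 called by the F test and open points for the others. MIR100HG and MIR9-3HG lie at the far right and MIR99AHG and MIR29B2CHG at the far left.

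Among the hosts of the let-7 seed, MIR100HG and MIR99AHG differed between lines in opposite directions. MIR100HG, an lncRNA of chromosome 11, had 125 and 118 reads in the control and si-MALAT1 libraries of H460, 275 and 330 in A549, and 7129 and 7438 in H1299. MIR99AHG, its counterpart on chromosome 21 (chr21:16070488-16631727, plus strand), had 530 and 533 reads in H460, 61 and 93 in A549, and 2 and 18 in H1299. The order of the lines was therefore turned around between these 2 genes, and no library of one line overlapped another for either gene. With both libraries of a line pooled and scaled for depth, MIR100HG was 52.2-fold higher in H1299 than in H460 (46.0 to 59.5) and 15.9-fold higher than in A549 (14.7 to 17.3). MIR99AHG was 61.0-fold higher in H460 than in H1299 (adjusted p of the contrast 0.000818) and 5.25-fold higher than in A549 (4.43 to 6.26). The adjusted p of the F test was 1.88e-05 for MIR100HG and 0.00123 for MIR99AHG.

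MIR4458HG (chr5:8457687-8463096, plus strand), whose exon holds the shortest of the let-7 seed miRNAs shown above, followed the order of MIR99AHG, with 387 and 413 reads in H460, 103 and 199 in A549, and 0 and 4 in H1299. Its level in H460 was 230.0-fold that in H1299 (89.3 to 845.0), on 4 reads in H1299, and the adjusted p of the F test was 0.00063. MIRLET7BHG (chr22:46085997-46113928, plus strand), which carries let-7a and let-7b in an exon, had 774 and 578 reads in H460, 595 and 481 in A549, and 780 and 718 in H1299. Its libraries overlapped between lines, and the scaled ratio of A549 to H1299 was 1.08 (1.00 to 1.17). The adjusted p of the F test was 0.848. MIR4500HG was read at 25 and 28, 14 and 11, and 0 and 5 in the same order and was not called (adjusted p = 0.113).

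**Figure D3:**
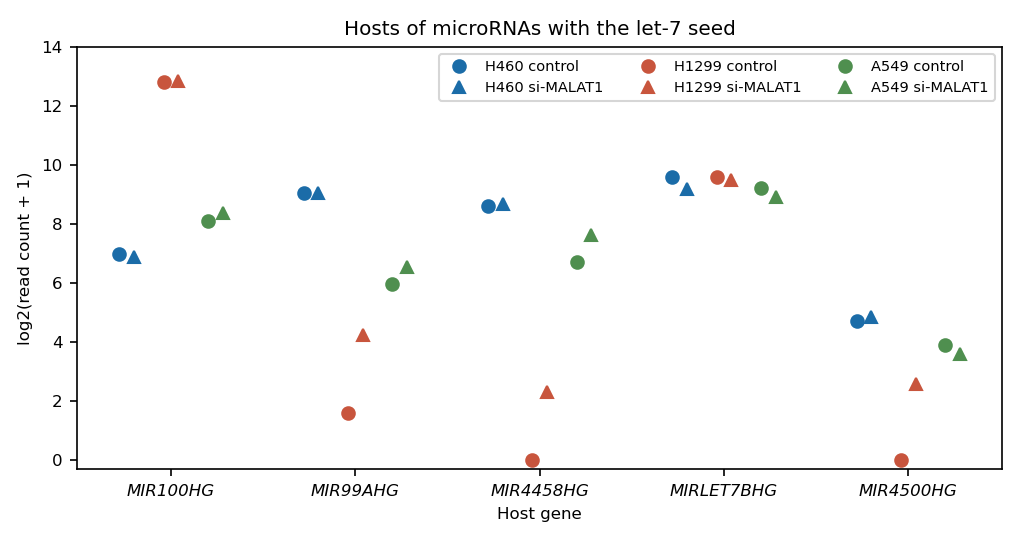
Read counts, as log2(read count + 1), of the 5 host genes that carry a microRNA with the let-7 seed, for the control (circles) and si-MALAT1 (triangles) library of each cell line. MIR100HG was highest in H1299, where MIR99AHG, MIR4458HG, and MIR4500HG were lowest, and MIRLET7BHG had 481 to 780 reads in every library.

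MIR34AHG (chr1:9148011-9182338, minus strand), the host of miR-34a, was low in H1299. It had 1203 and 1232 reads in H460, 995 and 1430 in A549, and 110 and 188 in H1299, so that the H1299 libraries lay below all others. It was 9.38-fold higher in H460 than in H1299 (8.31 to 10.6) and 12.3-fold higher in A549 than in H1299 (10.9 to 13.9), with an adjusted p of 0.000207.

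MIR17HG (chr13:91347820-91354575, plus strand), which carries the growth-promoting cluster from miR-17 to miR-92a, was likewise lowest in H1299, with 347 and 306 reads, beside 1194 and 1180 in H460 and 846 and 1104 in A549. H460 was 4.17-fold above H1299 (3.82 to 4.56) and A549 4.51-fold (4.12 to 4.93), with an adjusted p of 0.000295, while A549 and H460 did not pass in their contrast (adjusted p = 0.678). MIR29B2CHG (chr1:207801518-207822703, minus strand), the host of miR-29b and miR-29c, which are known to restrain collagen and DNA methyltransferase mRNAs, had 965 and 781 reads in H460, 104 and 206 in A549, and 46 and 44 in H1299. Here H460 stood apart, 22.3-fold above H1299 (adjusted p of the contrast 0.000248) and 4.28-fold above A549 (3.79 to 4.85), with an adjusted p of 0.000359.

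The order of the lines varied among other host genes. MIR1915HG had 1018 and 849 reads in A549, 578 and 609 in H460, and 377 and 261 in H1299, and A549 was 4.42-fold above H1299 (4.04 to 4.84). MIR210HG, the host of the hypoxia-induced miR-210, had 293 and 292 reads in A549, 303 and 206 in H460, and 108 and 117 in H1299. This was 3.93-fold between A549 and H1299 (3.36 to 4.60), and A549 and H460 did not pass in their contrast (adjusted p = 0.148). MIR193BHG had 129 and 150 reads in A549, 59 and 135 in H460, and 22 and 32 in H1299, and its A549 and H460 libraries did not pass in their contrast either (adjusted p = 0.109). Among these 3, H1299 was the lowest line for each gene. MIR31HG, host of miR-31 on chromosome 9, had 471 and 515 reads in H1299, 285 and 350 in A549, and 128 and 178 in H460, where it was lowest. Scaled for depth, the ratio of H1299 to A549 was 1.03 (0.93 to 1.14), and the 2 lines did not pass in their contrast (adjusted p = 0.923). MIR4435-2HG, at 21.8 to 46.4 TPM in the 6 libraries, was 2.21-fold higher in H460 than in A549 (2.11 to 2.32). Its adjusted p in the F test was 0.00505. MIR22HG had 610 and 554 reads in H460, 636 and 1480 in A549, and 863 and 1550 in H1299. Scaled for depth, A549 was 1.32-fold above H1299 (1.25 to 1.4), and these lines did not pass in their contrast (adjusted p = 0.35). The adjusted p of the F test for MIR22HG was 0.0442. It rose to 0.0526 without the A549 control, 0.0798 without the H460 si-MALAT1 library, and 0.115 without the A549 si-MALAT1 library.

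Pairs of host genes that carry the same miRNA were set side by side, and the difference within a pair was not tested. MIR181A1HG on chromosome 1 and MIR181A2HG on chromosome 9 both carry miR-181a and miR-181b. MIR181A1HG had 128 and 110 reads in H460, 4 and 13 in A549, and 43 and 34 in H1299, with H460 10.6-fold above A549 (6.51 to 18.6) and an adjusted p of 0.00769. MIR181A2HG had 60 and 77, 28 and 45, and 64 and 75 reads, with an adjusted p of 0.511. MIR9-3HG and MIR9-1HG both carry miR-9, a miRNA of the nervous system. MIR9-3HG had 2 and 2 reads in H460, 24 and 26 in A549, and 181 and 106 in H1299. It was 62.5-fold higher in H1299 than in H460 on 4 reads (24.2 to 231.0), and the adjusted p of the F test was 0.00118. MIR9-1HG had 31 to 67 reads in every library and an adjusted p of 0.946.

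Some host genes were read in a single line or absent from 1 line. In H1299 alone, MIR2052HG had 153 and 241 reads, MIR155HG, the host of the immune miRNA miR-155, had 106 and 89, and MIR646HG had 78 and 96, with 0 reads in the other 4 libraries. Against a limit of 3 reads over both libraries of a line, MIR155HG was at least 56.6-fold higher in H1299 than in H460 and at least 43.1-fold higher than in A549. MIR2052HG was at least 114.0-fold and at least 87.0-fold higher by the same measure, though its adjusted p of 0.00192 in edgeR was 0.149 in DESeq2. MIR4713HG was the only host gene read in both libraries of H460 and in no other library, with 85 and 88 reads, at least 66.2-fold above H1299 and at least 43.8-fold above A549. It lies opposite an exon of CYP19A1, whose reads cannot be told apart from its own if strand was not used. No host gene was read in both A549 libraries and in no other library.

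MIR924HG had 166 and 117 reads in H460, 153 and 129 in A549, and 0 in both H1299 libraries, at least 108.0-fold and at least 142.0-fold above H1299. MIR137HG had 0 reads in H460, 54 and 35 in A549, and 78 and 78 in H1299. MIR194-2HG, the host of miR-192 and miR-194, which are typical of gut and liver epithelium, had 200 and 189 reads in A549, 6 and 2 in H1299, and 0 in H460, at least 171.0-fold between A549 and H460. MIR200CHG and MIR205HG, which carry miRNAs known to maintain epithelial cells, had at most 3 and at most 2 reads in any library and were not detectable beyond that.

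Of the 24 host genes with a mean of at least 50 reads, 5 were not called between lines. Besides MIRLET7BHG and MIR181A2HG, these were MIR4453HG, MIR762HG, and MIR600HG. The share of all genes with such a mean that were called is not given here, so this count has no background beside it. MIR4453HG had 302 and 315 reads in H460, 174 and 311 in A549, and 317 and 235 in H1299, and its adjusted p was 0.476. MIR762HG had 234 and 205, 73 and 107, and 210 and 133 reads in the same order, with an adjusted p of 0.116, and overlaps an exon of BCL7C on the opposite strand. MIR600HG had 149 and 196, 5 and 99, and 117 and 85 reads, and its adjusted p of 0.281 became 0.00896 without the A549 si-MALAT1 library. The adjusted p of MIR3936HG (222 and 190 reads in H460, 149 and 167 in A549, and 53 and 83 in H1299) was 0.0103, and 0.0519 without the H1299 control. The adjusted p of MIR570HG (39 and 26, 96 and 84, and 57 and 72 reads) was 0.0286 and lay between 0.0689 and 0.180 without the A549 control, the A549 si-MALAT1, or the H460 si-MALAT1 library. It shares exonic sequence with SDHAP2 on the same strand, so its reads are uncertain. The adjusted p of MIR503HG was 0.0152, and 0.135 or 0.0581 without the A549 control or si-MALAT1 library.

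The second comparison, si-MALAT1 against control, gave no call. In edgeR's test paired by cell line, 0 of 28 tested host genes had an adjusted p under 0.05, and 1 of all 19122 genes tested, MALAT1 itself, did, which is 0.00523%. At an unadjusted p under 0.05 there were 2 host genes (7.14%), beside 2863 of all genes (15.0%). DESeq2 gave an adjusted p for 13 host genes and called 0 of them, while it called 10.2% of all 13117 genes with an adjusted p. Within single lines, which have no replicates, a fold change of 1.5 was used. Of the 23 host genes with a read in every library, 2 were higher and 0 lower in H460 (9.5% and 10.3% of all such genes), 5 higher and 2 lower in H1299 (11.7% and 11.4%), and 5 higher and 3 lower in A549 (11.5% and 11.4%). None of the 23 was past a fold change of 1.5 in the same direction in all 3 lines, where 1.19% of all genes were higher and 1.28% lower. The median log2 fold change of the 23 was 0.05 in H460, 0.12 in A549, and 0.01 in H1299, beside 0.02, 0.01, and 0.02 over all genes.

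**Figure D4:**
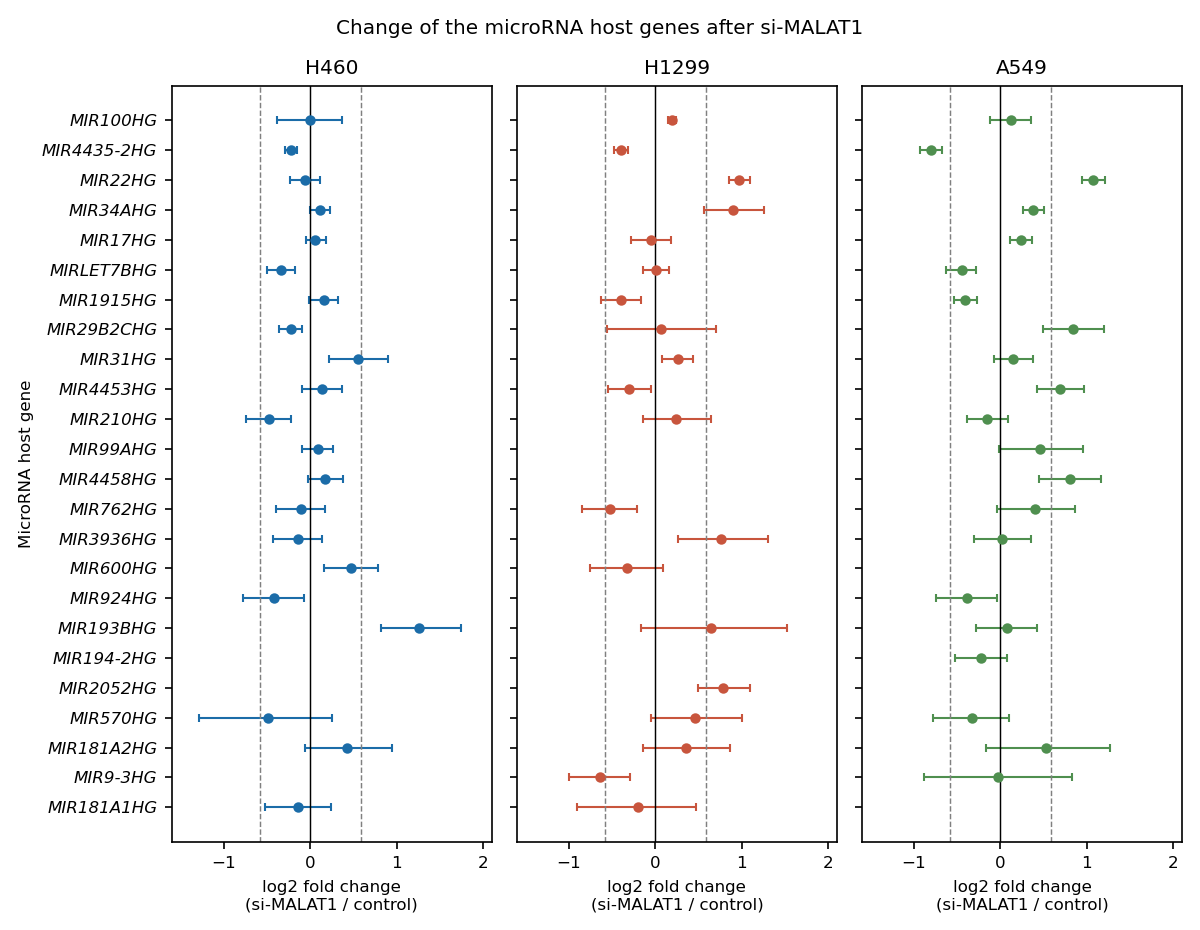
Log2 fold change (log2 of the scaled read count plus 1, si-MALAT1 minus control) of the 24 named microRNA host genes in each cell line, with exact 95% intervals for counting error and no replicates. Points are drawn where both libraries had at least 10 reads, and dashed lines mark a fold change of 1.5. MIR22HG lies near 1 in H1299 and A549 and near 0 in H460, and MIR4435-2HG lies below 0 in each line.

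MIR22HG (chr17:1711504-1716272, minus strand), whose exon holds miR-22, gave the smallest p among the host genes that were higher. From control to si-MALAT1, there were 863 and 1550 reads in H1299, 636 and 1480 in A549, and 610 and 554 in H460. The level was about doubled in 2 lines, at 5.92 and 12.7 TPM in H1299 and 7.47 and 15.1 TPM in A549, and not in H460, at 4.15 and 3.72 TPM. The log2 fold change was 0.97 in H1299 (0.85 to 1.10), 1.07 in A549 (0.94 to 1.21), and −0.06 in H460 (−0.23 to 0.11), and 0.66 ± 0.63 (SD, n = 3) on average. The adjusted p of edgeR's paired test was 0.287 and that of DESeq2 0.159. Without the pair of H460, the line where it was not higher, the adjusted p was 0.0418, and MIR22HG was then the 1 host gene called. The share of all genes called without H460 is not given here, so this call has no background beside it. The adjusted p was 0.507 without the H1299 pair and 0.951 without the A549 pair. Whether H460 differed from the other lines in this change was not tested. MIR22HG took 5.70% of the host gene reads in the H1299 control and 10.4% after si-MALAT1, and 16.2% in the A549 si-MALAT1 library, where it had the most reads.

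MIR4435-2HG was the 1 host gene lower in all 3 lines among the 23, beside 18.8% of all genes. From control to si-MALAT1, there were 1378 and 873 reads in A549, 3212 and 2225 in H1299, and 3620 and 2929 in H460. The log2 scale gave −0.80 for A549 (−0.93 to −0.68), −0.40 for H1299 (−0.48 to −0.32), and −0.22 for H460 (−0.29 to −0.15). The mean was −0.48 ± 0.30 (SD, n = 3), with an unadjusted p of 0.0127 and an adjusted p of 0.204 in edgeR and of 0.0679 in DESeq2. By counts it was past a fold change of 1.5 in A549 and in no other line, and on the log2(TPM + 1) scale in none, with −0.28 in A549, −0.09 in H1299, and −0.24 in H460. CYTOR, an lncRNA with a near-identical sequence, shares 27.6% of the 50-base windows of the MIR4435-2HG transcripts in GENCODE, and reads could be split between the pair. CYTOR had 1604 and 1571 reads in H460, 1056 and 743 in A549, and 1397 and 1261 in H1299, or log2 fold changes of 0.05, −0.65, and −0.02, so both were lower in A549. The part of shared reads in these values was not tested. For the other host genes with a mean of at least 50 reads whose transcripts were found, at most 4.33% of the windows were found in any other gene.

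The 5 host genes higher in all 3 lines among the 23, beside 21.4% of all genes, were MIR34AHG, MIR31HG, MIR99AHG, MIR193BHG, and MIR181A2HG. MIR34AHG had log2 fold changes of 0.12, 0.90, and 0.38 in H460, H1299, and A549, a mean of 0.46 ± 0.40 (SD, n = 3) with an adjusted p of 0.346, and the H460 value was −0.02 on the TPM scale. LNCTAM34A, which overlaps its exon on the opposite strand, had 12 to 102 reads. MIR31HG had log2 fold changes of 0.55, 0.26, and 0.15 and an adjusted p of 0.523. MIR193BHG, which carries miR-193b and miR-365a, went from 59 to 135 reads in H460, which is 1.26 on the log2 scale (0.82 to 1.74), whereas H1299 with 22 and 32 reads gave 0.64 (−0.16 to 1.52) and A549 with 129 and 150 reads 0.07 (−0.28 to 0.42). MIR99AHG had a log2 fold change of 2.68 in H1299 on 2 and 18 reads (1.24 to 6.45), beside 0.09 in H460 and 0.46 in A549, and the H460 value was −0.10 on the TPM scale. MIR181A2HG had log2 fold changes of 0.43, 0.35, and 0.53, and each interval included 0.

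Most of the remaining changes past a fold change of 1.5 were seen in a single line. In A549, MIR600HG went from 5 to 99 reads, a log2 fold change of 3.97 (2.89 to 5.82), beside 0.47 in H460 and −0.33 in H1299. MIR600HG lies in 1 exon that overlaps an exon of STRBP on the same strand, and STRBP had 2781 and 3917 reads in A549, a log2 fold change of 0.35. The reads of the 2 genes cannot be told apart where their exons overlap. MIR29B2CHG went from 104 to 206 reads in A549, or 0.84 (0.49 to 1.20), and was −0.22 (−0.36 to −0.09) in H460. LOC148696, opposite one of its exons, had 0 and 10 reads in A549. MIR4453HG, opposite an exon of FBXW7, had log2 fold changes of 0.69 in A549 (0.42 to 0.97) and −0.30 in H1299 (−0.55 to −0.05). MIR181A1HG had 1.40 in A549 on 4 and 13 reads (−0.14 to 3.63). MIR4458HG, left out of the 23 because of its 0, had 0.80 in A549 (0.45 to 1.16). Among host genes with a mean under 50 reads, MIR503HG was at −0.71 in A549 (−1.25 to −0.20) and MIR9-1HG at −0.96 in H1299 (−1.64 to −0.35). MIR497HG, opposite an exon of C17orf49, was past a fold change of 1.5 upward in H460, with 11 and 27 reads, and downward in A549, with 7 and 4 reads, where the interval included 0 (−3.17 to 1.02).

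In H1299, MIR3936HG went from 53 to 83 reads, a log2 fold change of 0.76, and MIR9-3HG from 181 to 106, or −0.64, both with intervals that left out 0. MIR3936HG overlaps exons of SLC22A4 and SLC22A5 on the opposite strand, and SLC22A4 also had a log2 fold change of 1.32 in H1299, from 156 to 358 reads, whereas SLC22A5 had −0.12, from 357 to 300 reads. MIR2052HG, read in H1299 only, went from 153 to 241 reads, or 0.78 (0.49 to 1.09). MIR100HG, despite its depth in H1299, had 0.19 there (0.15 to 0.24), −0.00 in H460, and 0.12 in A549. MIR17HG had 0.06, −0.05, and 0.24, and MIRLET7BHG −0.34, 0.01, and −0.45. MIR210HG had −0.47 in H460 (−0.74 to −0.22), and MIR1915HG had −0.41 in A549 (−0.54 to −0.27) and −0.40 in H1299 (−0.63 to −0.17). The sizes given from MIR100HG to MIR1915HG are below a fold change of 1.5. On the log2(TPM + 1) scale, the host genes among the 23 still past 1.5-fold were MIR193BHG in H460, with 0.76, and MIR22HG in A549 and H1299, with 0.92 and 0.98, while MIR600HG had 0.48 in A549.

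The rows of the hosted miRNA genes themselves were examined beside their hosts. They list a read count for the hairpin gene and do not measure the mature miRNA. In host genes with a read there were 49 such rows in introns, of which 36 had a read and 26 had more than 3 reads in a library, up to 41. In exons or at their edge there were 28 rows, of which 22 had a read and 1 had more than 3, at most 4. The counts of several exonic rows stayed the same while those of the host varied. MIR22 was listed at 3 reads in all 6 libraries while MIR22HG had 554 to 1550, and MIR17 at 3 reads in all 6 while MIR17HG had 306 to 1194. In all, 6 exonic rows were at 3 and 2 were at 2 in every library. These identical values limit the rows as a measurement, and their cause was not tested.

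Intronic rows followed the cell line of some hosts. In MIR100HG, MIRLET7A2 had 41 and 22 reads in H1299, 5 and 0 in H460, and 0 and 2 in A549, and MIR125B1 had 18 and 26 reads in H1299 and at most 1 elsewhere. MIR2682 in MIR137HG had 24 and 27 reads in H1299, 5 and 13 in A549, and 0 in H460, where its host also had 0. Scaled for depth, the ratio of H1299 to A549 for MIR137HG was 1.16 (0.889 to 1.52). The host thus gave no order between these 2 lines. MIR99A in MIR99AHG had 6 and 9 reads in H460, 0 in A549, and 0 and 5 in H1299, although its host was lower in H1299 than in A549. Some other rows did not follow their host. MIR663A had 31 and 28 reads in H1299, 24 and 11 in H460, and 7 and 8 in A549, although its host MIR663AHG had at most 1 read. MIR570 was highest in H1299, at 24 and 20 reads, whereas MIR570HG was highest in A549, at 96 and 84. MIR210 had 0 reads in A549, where MIR210HG had 293 and 292. Counts of this size carry wide counting error, and they were not tested.

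**Figure D5:**
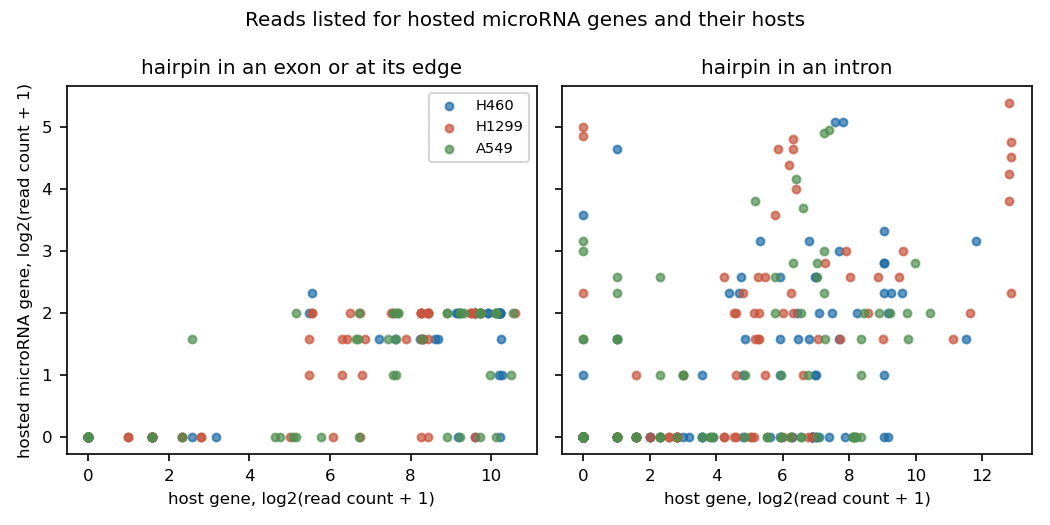
Read counts of hosted microRNA genes against those of their host gene in the same library, both as log2(read count + 1), for hairpins in an exon or at its edge (left) and in an intron (right), coloured by cell line. The exonic rows end at 3 reads, with 1 at 4, and the intronic rows reach 41 reads in H1299.

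Other hosts and the miRNA processing genes were set beside these genes. Of 72 other lncRNA genes that hold a miRNA gene on their strand, 31 were tested in edgeR's paired test and 0 were called, with 3 (9.68%) at an unadjusted p under 0.05, while DESeq2 called 1 higher and 1 lower of 18. Of 760 protein-coding hosts, 684 were tested and 0 were called, with 134 (19.6%) at an unadjusted p under 0.05, while DESeq2 called 32 higher and 27 lower of 600. Over all genes, 15.0% had an unadjusted p under 0.05 and DESeq2 called 10.2%. The median log2 fold changes of the protein-coding hosts were −0.03, 0.13, and −0.01 in H460, H1299, and A549. In the cell line test, 62.9% of the other lncRNA hosts and 78.0% of the protein-coding hosts were called, beside 48.1% of the lncRNA genes without a hosted miRNA. The differences between these shares were not tested.

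Of 23 miRNA processing genes, 0 were called by edgeR, with 9 (39.1%, beside 15.0% of all genes) at an unadjusted p under 0.05, of which 4 were higher and 5 lower. DESeq2 called 3 higher and 5 lower, beside 10.2% of all genes in either direction. The largest mean log2 fold change was that of AGO2, the Argonaute that cuts targets, with 0.37, 1.27, and 0.61 in H460, H1299, and A549 (edgeR adjusted p = 0.173, DESeq2 adjusted p = 0.00775). The smallest was that of DROSHA, the nuclear hairpin nuclease, with −0.57, −0.21, and −0.60 (edgeR adjusted p = 0.176, DESeq2 adjusted p = 0.0326). The other genes called by DESeq2 were named after their values were seen. Higher were DICER1, with 0.50, 0.65, and 1.00 (edgeR adjusted p = 0.113), and LIN28B, with 0.00, 1.02, and 0.69 (edgeR adjusted p = 0.123). LIN28B is an inhibitor of let-7 maturation. Lower were RAN (−0.21, −0.61, and −0.40), AGO3 (−0.42, −0.31, and −0.30), XPO5 (−0.40, −0.27, and −0.32), and TENT2 (−0.32, −0.24, and −0.39).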

How the data were processed

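RNA-seq was performed on 6 libraries, 1 control and 1 si-MALAT1 library of each of 3 NSCLC cell lines, from rRNA-depleted total RNA and a stranded kit. For the deposited table of read counts, FPKM, and TPM, the authors trimmed the reads (Trimmomatic), aligned them to hg38 (HISAT2 2.1.0), and quantified genes with StringTie, whose version the submitters' processing notes give as 1.3.4b and the methods differently. The deposited counts are whole numbers and not normalized, and the deposited TPM is scaled by the authors for length and depth. The FPKM values were not analysed further. Whether counting used the strand is not given in the sources used here. Another 18 columns of per-sample values match no sample of the series and were not used.

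Positions and hosted miRNA genes came from the deposited NCBI annotation on GRCh38. Of the 94 hosted miRNA rows, 78 had a hairpin entry at the same position in RefSeq. Within a line, 1 was added to the RLE-scaled counts and the log2 of the control was subtracted from that of si-MALAT1, and ratios between lines pooled both libraries of a line. The tests were edgeR 4.0.16's quasi-likelihood tests (TMM, filterByExpr, Benjamini-Hochberg over all genes), paired by cell line or testing the cell line with condition as a term, and DESeq2 1.42.0 was the alternative. The pairing comes from the shared cell line. Deviations from the group means correlated at 0.93, 0.943, and 0.934 over 14464 genes. On simulated counts with 200 genes changed by 2 on the log2 scale, the paired test recovered 96.5% over 18515 genes with 4.46% false calls. The cell line test recovered 93.5% over 18902 genes with 5.56% false calls. The changed genes were drawn from those with a mean of at least 50 reads. For the cell line test they differed in H1299 only, and all other genes had the same mean in every line. These rates therefore do not cover host genes with a lower mean, or a comparison in which most genes differ. Recovery of genes that differ by less than 2 on the log2 scale was not tested. The members and lists were chosen with earlier results of these data known. Host genes with a mean of at least 50 reads were named with their counts, others by range or name. Of the processing genes, those with the largest and smallest mean change were named, and later the others called by DESeq2. Alternatives were another tool, normalization, filter, pseudocount, unit, and threshold, and leaving out lines or libraries.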

Additional observations from a re-analysis of the deposited data

How the results depend on the processing

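The count of host genes called in the paired test was 0, and it was also 0 with DESeq2, RLE, no filter, and no replicate block. Leaving out 1 cell line gave 0 to 1, the 1 being MIR22HG without H460, with no share of all genes beside it. On the TPM scale with 1 added, the host genes past a fold change of 1.5 were 1 higher in H460 (2 by counts), 1 higher and 0 lower in H1299 (5 and 2), and 1 higher and 0 lower in A549 (5 and 3), the median in H460 was −0.05 in place of 0.05, and MIR34AHG in H460 was −0.02 in place of 0.12. By construction, the added 1 shrinks the fold change of a gene near or under 1 TPM, but not that of MIR4435-2HG, which had −0.28 in place of −0.80 in A549 and −0.09 in place of −0.40 in H1299 at 21.8 TPM or more, and the cause was not tested. With a log2 fold change of 1.5 as the threshold, 0 were higher in H460, 1 higher and 0 lower in H1299, and 1 higher and 0 lower in A549. With a mean of at least 50 reads in place of a read in every library, 1 was higher in H460 and 1 lower in A549, and the median in H1299 was 0.13 in place of 0.01. Of the 68 log2 fold changes of named host genes, 67 kept their size within the counting interval under TMM, 66 with a pseudocount of 10, and 52 on the TPM scale. Between cell lines, 24 host genes were called, 23 with DESeq2, no filter, or no condition term, 24 with RLE, and 21 to 24 when 1 library was left out. MIR22HG was not called there without the filter (adjusted p = 0.0778) or the condition term (0.0919). Depth limits the low host genes, such as MIR181A1HG in A549, where 4 and 13 reads gave a counting interval of −0.14 to 3.63.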
